A study of Mus musculus with 23 samples.

Results

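Genes of cell division and DNA replication were followed in gastrocnemius, a calf muscle, of male C57BL/6J mice. The members are 38 genes listed by symbol, each looked up on the arrays through the RefSeq accession of its probe, and all 38 had at least 1 probe. They were sorted into 22 genes of mitosis and cytokinesis, 12 of DNA replication and 4 regulators of the cell cycle. Of these, 35 were well above background on at least 3 of the 23 arrays and could be tested: 20 mitotic genes, 12 replication genes and 3 regulators, among 23716 features tested in all. Because passing that filter needs only 3 bright arrays, a gene can pass through the group where it is high. Cdc6, a replication gene, passed on 3 arrays, 1 of them old sedentary. Bub1 and Kif11, the tested mitotic genes above background on fewest arrays, passed on 5 each, 2 of them old sedentary. Aurkb was well above background on 0 arrays, and Cenpf and Ccne2 each on 1 array, so these 3 were not tested.

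Mice entered the study at 5 months (adult) or 24 months (old) and were sampled at 6 or 25 months, after 4 weeks. All were single-housed wild-type males and, at each age, stayed sedentary beside a treadmill that was off, or ran daily. In high-intensity intermittent training (HIIT) the belt turned at 27 m/min in 3 bouts of 2 min, each followed by 1 min at 5 m/min. In moderate-intensity continuous training (MICT) mice ran 45 min without a break at 13 m/min. Sampling followed 12 h without exercise, and the 1-colour arrays number 4 per group except adult MICT, which has replicates 1, 3 and 4.

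A dividing cell first copies its DNA and then separates the copies. Replication is licensed by Cdc6 and Cdt1, which load the Mcm helicase, and is carried out by polymerases held on DNA by the Pcna clamp. In mitosis, cyclin B with Cdk1 drives entry, the spindle checkpoint waits for chromosome attachment, the anaphase-promoting complex with Cdc20 releases it, and kinesins and the central spindle split the cell. Mature muscle fibres are non-dividing, and in muscle tissue division is known mainly from satellite cells, the muscle stem cells, and from immune, vascular and connective tissue cells. Mitotic genes are switched on late in the cycle through promoter elements called CCAAT boxes and CHR elements, whereas many replication genes carry sites for E2F factors.

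The promoters were searched for these 3 motifs, and the shares below are a description with no test of a difference. Of the 38 members, 31 were found in the RefSeq promoter table (GRCm38.p6, 250 bases before to 50 after the start of the gene), 18 mitotic, 11 replication and 2 regulators. The CHR letters TTTGAA, searched on both strands, stood in 13 of the 18 mitotic promoters (72.2%), in 1 of the 11 replication promoters (9.09%) and in 17.9% of all 32851 promoters in the table. The CCAAT letters stood in 16 mitotic promoters (88.9%), in 8 replication promoters (72.7%) and in 37.4% of all. An E2F match was taken on either strand as the letters TTCCCGC or the related letters TTGGCGC, with TTCGCGC as another form and TTGCCGC as the last. It stood in 8 of 11 replication promoters (72.7%), in 3 mitotic promoters (16.7%) and in 9.57% of all. The letters TTGG are shared by the E2F motif TTGGCGC and the reverse of CCAAT. The promoters of E2f1 and Ccne1 held none of these letters, and a match describes letters only.

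The promoters of 5 genes are shown to make these motifs visible, 3 of mitotic genes and 2 of replication genes. Each run is the 200 bases before the start of the gene, 5′ to 3′ on the gene's strand in GRCm38.p6, with all matches in capitals. Positions count backwards from -1, the base before the start. Cdc20 (chr4:118437344-118437543, minus strand) held CHR letters at -18 between CCAAT boxes at -53 and -8. Mki67 (chr7:135716380-135716579, minus strand) held CHR letters at -116 and -98, CCAAT boxes at -188, -166 and -141 and an E2F match at -67. Top2a (chr11:99024190-99024389, minus strand) held CHR letters at -179 and -23 with 5 CCAAT boxes in the printed run. Mcm5 (chr8:75109309-75109508, plus strand) held E2F matches at -164, -152 and -149, the last pair overlapping, with CCAAT boxes at -77 and -22. Mcm6 (chr1:128359706-128359905, minus strand) held 4 E2F matches in overlapping pairs, at -109 and -106 and at -46 and -43, with CCAAT boxes at -57 and -14.
Cdc20: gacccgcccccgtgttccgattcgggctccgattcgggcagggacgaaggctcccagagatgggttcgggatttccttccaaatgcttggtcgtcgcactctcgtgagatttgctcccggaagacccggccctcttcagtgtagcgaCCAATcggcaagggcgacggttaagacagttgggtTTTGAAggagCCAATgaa
Mki67: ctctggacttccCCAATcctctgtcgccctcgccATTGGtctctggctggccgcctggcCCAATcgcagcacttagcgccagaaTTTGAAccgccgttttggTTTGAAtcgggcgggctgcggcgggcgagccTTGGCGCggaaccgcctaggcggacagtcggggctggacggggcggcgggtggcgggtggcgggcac
Top2a: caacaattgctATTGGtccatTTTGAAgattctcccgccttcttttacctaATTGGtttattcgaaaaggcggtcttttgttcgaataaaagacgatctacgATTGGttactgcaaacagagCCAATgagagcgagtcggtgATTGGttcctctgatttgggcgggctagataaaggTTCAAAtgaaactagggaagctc
Mcm5: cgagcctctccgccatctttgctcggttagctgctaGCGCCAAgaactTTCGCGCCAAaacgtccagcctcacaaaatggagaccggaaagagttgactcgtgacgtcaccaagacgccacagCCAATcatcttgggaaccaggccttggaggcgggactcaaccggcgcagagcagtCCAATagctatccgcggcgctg
Mcm6: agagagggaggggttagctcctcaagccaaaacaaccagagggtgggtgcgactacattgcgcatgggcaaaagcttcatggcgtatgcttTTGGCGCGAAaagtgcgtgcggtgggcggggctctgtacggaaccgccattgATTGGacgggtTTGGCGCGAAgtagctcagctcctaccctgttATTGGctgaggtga

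The tissue matched its label: 10 of 10 muscle fibre markers were well above background on every array. Between 47.2% and 58.9% of gene spots per array were well above background, the correlation between arrays ran from 0.9229 to 0.9923, and 0 member spots were saturated. Each slide carried 2 groups, adult sedentary with adult HIIT, adult MICT with old sedentary, and old HIIT with old MICT. So old against adult sedentary, and old MICT against old sedentary, each compare arrays on different slides. A level below is the log2 intensity minus the array's 75th percentile, so that 0 stands for that percentile, and levels of different genes are not comparable. A difference is limma's log2 difference ± its standard error (SE), called at a Benjamini-Hochberg adjusted p under 0.05 over all 23716 features.

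Mitotic genes were highest in old sedentary muscle and lowest in both MICT groups. Replication genes were also highest in old sedentary muscle, with smaller steps between groups, and were lowest in adult MICT but not in old MICT. The median level of the 20 mitotic genes, relative to their adult sedentary mean, was 2.08 ± 1.37 (SD, n = 4) in old sedentary mice and 1.10 ± 0.45 (SD, n = 4) in old HIIT mice. It was 0.36 ± 0.67 (SD, n = 4) in adult HIIT, -0.01 ± 1.20 (SD, n = 4) in adult sedentary, -0.55 ± 0.35 (SD, n = 4) in old MICT and -0.64 ± 0.29 (SD, n = 3) in adult MICT. Adult MICT and old MICT lay within their spread of each other, as did adult sedentary and adult HIIT. The median of the 12 replication genes was 0.56 ± 0.54 (SD, n = 4) in old sedentary, 0.22 ± 0.19 (SD, n = 4) in old HIIT, 0.12 ± 0.19 (SD, n = 4) in old MICT and -0.16 ± 0.13 (SD, n = 3) in adult MICT, with 0.06 ± 0.14 and -0.01 ± 0.38 (SD, n = 4 each) in adult HIIT and adult sedentary. On bulk RNA, more dividing cells and more RNA per dividing cell cannot be told apart.

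**Figure D1:**
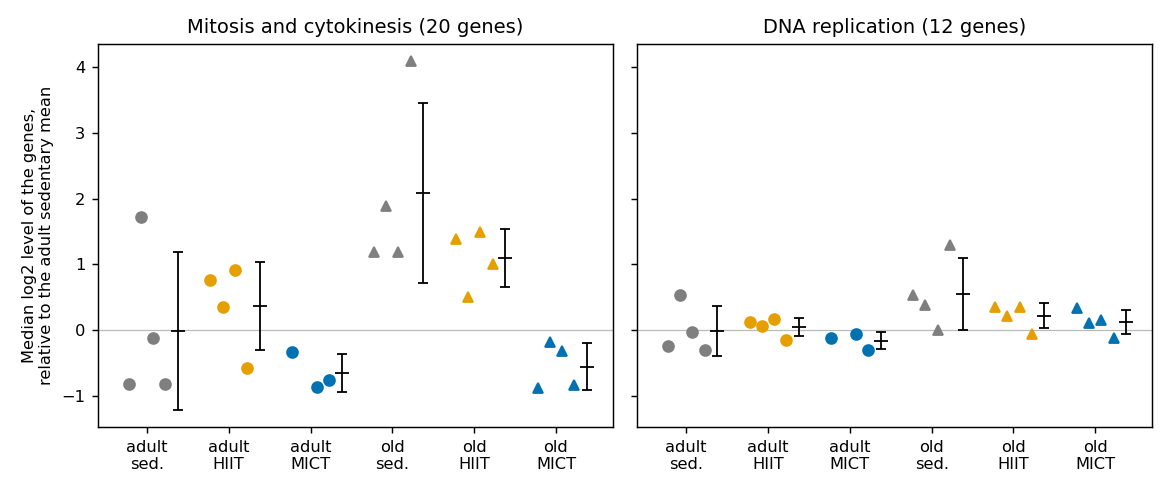
Median log2 level of the tested mitotic (left) and replication (right) genes on each array, relative to the adult sedentary mean; points are arrays and the bars beside them mean and SD. Old sedentary array 4 stands at 4.08 for mitotic and 1.3 for replication genes, and all 7 MICT arrays lie below 0 for mitotic genes.

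Single arrays carried much of the spread. Old sedentary array 4 had the highest level of its group for 34 of 35 members, the exception being Aurka, and the highest of all 23 arrays for 31. Its mitotic median was 4.08, against 1.19, 1.88 and 1.19 on arrays 1 to 3. Among adult sedentary arrays, array 2 had the highest level for 30 of 35 members, and its mitotic median was 1.72 against -0.82, -0.11 and -0.82. In adult HIIT, array 4 was the lowest for 25 of 35 members. So the 2 sedentary groups each hold 1 array with more cell division RNA than the rest.

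Over all 23 arrays the level of a mitotic gene ranged over 3.20 to 6.80 log2 units, with a median range of 5.23. Replication genes ranged over 0.79 to 5.17, with a median of 1.75. Most replication genes were bright throughout: 11 of 12 were well above background on all arrays, against 6 of 20 mitotic genes. A level below background is only a bound, so the ranges of dim genes are less well measured.

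Old sedentary muscle held more mitotic RNA than adult sedentary muscle. Of the 35 members, 15 rose, 13 mitotic and 2 replication (Mcm3 and Cdt1), and 0 fell, where 4.55% of all features rose and 8.3% fell. The median difference was 1.97 for mitotic genes, 0.59 for replication genes and 1.01 for the 3 regulators, beside -0.14 over all features. The groups overlapped for all 35 members, where 4.44% of all features were higher without overlap. Adult sedentary array 2 often reached into the old range.

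Among genes of chromosomes and the cycle engine, Mki67, which encodes the proliferation antigen coating mitotic chromosomes, stood at 0.76, 1.25, 0.40 and 2.93 on old sedentary arrays 1 to 4. On adult sedentary arrays 1 to 4 it stood at -3.12, 0.70, -1.42 and -2.90. All 4 old arrays were above 3 of the 4 adult arrays, and adult array 2 lay inside the old range. The difference was 3.02 ± 0.72 (8.1-fold, adjusted p = 0.0172).

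Ccnb1, the cyclin B1 gene whose product switches on Cdk1 at mitotic entry, was at -2.44, -1.41, -2.43 and 0.59 in old sedentary mice. In adult sedentary mice it was at -6.02, -1.87, -5.20 and -6.20, and only array 2 was well above background. The fitted difference was 3.40 ± 0.87 (adjusted p = 0.0206), and since 3 adult arrays gave only bounds, its size is not well measured. Ccnb2 and Ccna2, which encode other mitotic and S-phase cyclins, rose by 2.40 ± 0.65 and 2.30 ± 0.73 (adjusted p = 0.0255 and 0.0438). Cdk1 itself differed by 2.34 ± 0.84 and did not pass (adjusted p = 0.0655).

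At the kinetochore and spindle, Cenpe, a kinesin that carries chromosomes to the spindle equator, was at -1.50, -1.18, -1.19 and 0.92 in old sedentary mice. Adult sedentary mice had -5.06, -1.18, -3.36 and -4.49, so array 2 equalled old array 2. The fitted difference was 2.79 ± 0.70 (adjusted p = 0.0200). Only 2 of 4 adult sedentary arrays measured Cenpe above background, so its size is not well measured. Birc5, or survivin, a subunit of the chromosomal passenger complex, was at 0.59, 0.67, 0.31 and 3.03 against -2.96, 0.76, -1.58 and -2.45, a difference of 2.71 ± 0.69 (6.53-fold, adjusted p = 0.0209). On both genes 3 old arrays lay close together and array 4 stood above them. The other 2 Birc5 probes gave 2.18 ± 0.82 and 1.76 ± 0.67 and did not pass (adjusted p = 0.0758 and 0.0775).

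Cdc20, the activator of the anaphase-promoting complex, was at -0.76, 0.17, -0.43 and 2.02 in old sedentary mice and at -2.40, -0.03, -2.14 and -2.28 in adult sedentary mice. It rose by 1.97 ± 0.52 (3.91-fold, adjusted p = 0.0232). Ube2c, the ubiquitin-conjugating enzyme of the same complex, rose by 1.68 ± 0.51, Plk1, a kinase of mitotic entry and spindle assembly, by 1.88 ± 0.52, and Prc1, which bundles central spindle microtubules, by 2.66 ± 0.70. Kif20a and Nusap1 also rose, by 1.84 ± 0.51 and 1.64 ± 0.44. Top2a passed with a fitted 2.49 ± 0.69, but only 1 of 4 adult sedentary arrays and 3 of 4 old sedentary arrays measured it above background. Bub1, Bub1b, Kif23, Kif11, Aurka and Tpx2 did not pass. Aurka and Tpx2, a spindle kinase and its activator, had differences of -0.04 ± 0.47 and -0.33 ± 0.50, apart from the 1.53 to 3.40 of the other 18 mitotic genes. A dimmer Tpx2 probe gave -1.3 ± 0.48 and did not pass either (adjusted p = 0.071).

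In replication, Cdt1, which loads the Mcm helicase, was at 0.87, 0.63, -0.29 and 1.51 in old sedentary mice and at -1.27, 0.21, -1.28 and -1.45 in adult sedentary mice. It rose by 1.62 ± 0.38 (3.08-fold, adjusted p = 0.0159), the smallest adjusted p of any member here. Mcm3, a helicase subunit, was at 1.87, 1.52, 1.13 and 2.60 against 0.67, 1.65, 1.04 and 0.64, a rise of 0.78 ± 0.25 (1.71-fold, adjusted p = 0.0475). The 2 groups interleaved for Mcm3.

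Mcm5, another helicase subunit, was at -0.50, -0.56, -1.83 and 0.76 against -2.54, -0.56, -1.92 and -2.17, and its difference of 1.27 ± 0.44 did not pass (adjusted p = 0.0586). Pcna, the sliding clamp, hardly varied: 3.76, 3.65, 3.56 and 4.12 against 3.38, 3.84, 3.46 and 3.36, a difference of 0.26 ± 0.15 (adjusted p = 0.231). Rrm1 and Rrm2 encode the large and small subunits of ribonucleotide reductase, which makes deoxynucleotides. Rrm2 differed by 1.79 ± 0.63 (adjusted p = 0.0615) and Rrm1 by -0.22 ± 0.14 (adjusted p = 0.298). Among the regulators, Foxm1, a factor that drives mitotic genes, was at -3.46, -2.36, -2.92 and -0.58 against -4.46, -2.16, -3.92 and -3.76, a difference of 1.25 ± 0.49 that did not pass (adjusted p = 0.0887).

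The number of calls for age rested on single arrays. Leaving out any 1 of the 8 arrays compared moved it by more than 1.5 times. It was 0, 26, 1 and 0 without adult sedentary array 1, 2, 3 or 4, and 9, 1, 23 and 2 without old sedentary array 1, 2, 3 or 4. The share of all features called is not given for the fits of this paragraph. Their counts are therefore not read as particular to the members. Without old sedentary array 4 the members still called were Mki67 (2.49 ± 0.73, adjusted p = 0.0412) and Cdt1 (1.35 ± 0.39, adjusted p = 0.0388), and the mitotic median was 1.31. Without both standout arrays, adult sedentary 2 and old sedentary 4, 22 members were higher and 1 lower (Rrm1, -0.43 ± 0.13), and Plk1 rose by 1.81 ± 0.30 (adjusted p = 0.00357); this pair was chosen after seeing the data. With the slide as an additive term, or with only these 2 groups fitted, 0 members were called, and the mitotic medians were 1.66 and 1.97.

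The only comparison of old with adult muscle on 1 slide is old sedentary against adult MICT, which differ in age and in training. There 21 of 35 members were higher, 16 mitotic, 4 replication (Mcm3, Mcm5, Rrm2 and Cdt1) and 1 regulator (Foxm1), where 3.36% of all features were higher. The median difference was 2.68 for mitotic and 0.73 for replication genes, beside -0.13 over all features. The groups did not overlap for 24 members, all higher in old sedentary mice, against 7.24% of all features higher without overlap. Mki67 differed by 4.18 ± 0.78 (18.1-fold, adjusted p = 0.00897), with -1.73, -3.30 and -3.51 on adult MICT arrays 1, 3 and 4. Without adult MICT array 3 or 4 the count fell to 2 or 0, and without old sedentary array 1, 2 or 4 it was 13, 10 or 11. Fitted on these 2 groups alone it was 0. The share of all features called is not given for these further fits.

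**Figure D2:**
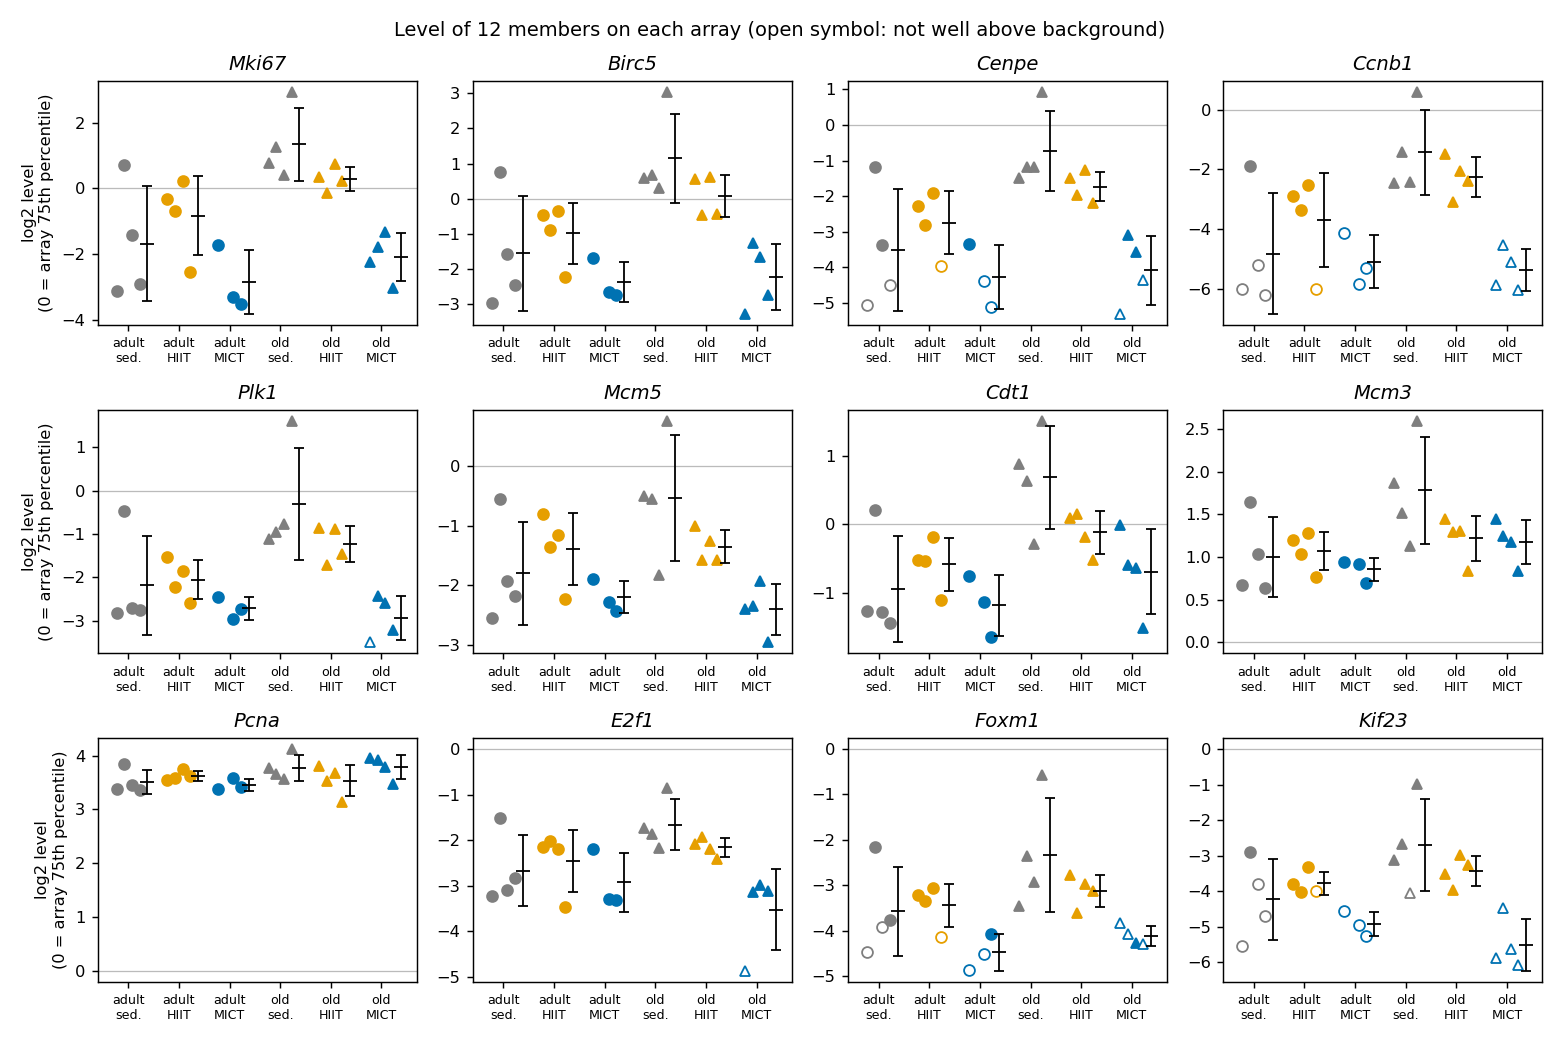
Log2 level of 12 members on each array (0 is the array's 75th percentile), with mean and SD bars; open symbols mark spots not well above background. Mki67 lies between 0.40 and 2.93 in old sedentary mice and between -3.05 and -1.34 in old MICT mice, while Pcna stays between 3.14 and 4.12 on all arrays.

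Mitotic genes were far lower in old mice after MICT than in old sedentary mice. Of the 35 members, 23 fell, 16 mitotic, 5 replication (Mcm4, Mcm5, Mcm6, Cdc6 and Cdt1) and 2 regulators (Foxm1 and E2f1), and 0 rose, where 9.03% of all features fell and 21.3% rose. The median difference was -2.52 for mitotic genes, -0.56 for replication genes and -1.79 for regulators, beside 0.19 over all features. The groups did not overlap for 19 members, all lower after MICT (16 mitotic, Mcm5, Foxm1 and E2f1), against 5.8% of all features lower without overlap. This comparison shares its old sedentary arrays with the age comparison, so the values of the 2 are not independent.

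Mki67 was at -2.25, -1.78, -1.34 and -3.05 on old MICT arrays 1 to 4, all below the lowest old sedentary value of 0.40. It fell by 3.44 ± 0.72 on the log2 scale (adjusted p = 0.00488). A further Mki67 probe gave -3.79 ± 0.81 (adjusted p = 0.00509). Birc5 was at -3.27, -1.26, -1.65 and -2.73, with a difference of -3.38 ± 0.69 (adjusted p = 0.00438), and its other 2 probes fell as well, with -2.83 ± 0.82 and -2.56 ± 0.67.

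Top2a, the topoisomerase that untangles sister chromosomes, was at -3.27, -2.07, -3.75 and -0.53 in old sedentary mice. In old MICT mice it was at -5.68, -6.07, -6.41 and -5.90, with no array well above background. Its level was at least 7.05-fold lower after MICT (adjusted p = 0.00364), counted against a floor. On that floor no MICT array counts as lower than the dimmest probe it could measure above background. Some brighter spots were not above background, such as Plk1 at -3.5 on old MICT array 1. Folds given here and below as "at least" hold only for that floor. The mean of the other group also includes its arrays that were not above background. For both reasons these folds can overstate the smallest fold. Kif23, a kinesin of the central spindle that acts in cytokinesis, was at -3.12, -2.66, -4.06 and -0.97 against -5.89, -4.47, -5.64 and -6.07, at least 5.10-fold lower (adjusted p = 0.00373). Of the old sedentary arrays, 3 measured Top2a and 3 measured Kif23 above background. Ccnb1, Cdk1 and Bub1 were also below background on all old MICT arrays and were at least 11.5-fold, 6.41-fold and 2.79-fold lower (adjusted p = 0.00546, 0.0101 and 0.0148). In old sedentary mice 4, 3 and 2 arrays measured them above background.

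Plk1 was at -1.11, -0.95, -0.78 and 1.62 in old sedentary mice and at -3.50, -2.43, -2.60 and -3.22 in old MICT mice. All MICT arrays were lower, with a difference of -2.63 ± 0.52 (adjusted p = 0.00392). Cenpe and Cdc20 fell by 3.34 ± 0.70 and 2.40 ± 0.52, and Prc1 by 3.31 ± 0.70. Cenpe and Prc1 were each above background on 2 of 4 old MICT arrays, so the sizes of their falls are not well measured. The 4 tested mitotic genes that did not pass were Aurka (-0.72 ± 0.47), Bub1b (-0.90 ± 0.52), Kif11 (-1.11 ± 0.95) and Tpx2 (-0.86 ± 0.50). A dimmer Tpx2 probe had the opposite sign, 0.61 ± 0.48, and did not pass either (adjusted p = 0.322). Old MICT array 1 had the lowest Aurka level of all arrays, -0.11, and array 4 the highest, 3.1.

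Within replication, Mcm5 stood apart from the other helicase subunits. It was at -2.39, -2.34, -1.92 and -2.95 after MICT, below the -1.83 of the lowest old sedentary array, and fell by 1.87 ± 0.44 (adjusted p = 0.00699). Mcm6 and Mcm4 fell by 0.93 ± 0.31 and 0.53 ± 0.18 (adjusted p = 0.0307 and 0.0326) with overlapping groups. Mcm2, Mcm3 and Mcm7 did not pass, at -0.47 ± 0.21, -0.60 ± 0.25 and 0.19 ± 0.23.

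Among the licensing genes, Cdt1 was at -0.01, -0.60, -0.64 and -1.52 after MICT and fell by 1.37 ± 0.38 (adjusted p = 0.0142), with MICT array 1 above old sedentary array 3. Cdc6 was at -4.04, -4.35, -3.72 and -2.73 in old sedentary mice against -6.02, -6.28, -4.32 and -4.55, and passed the test (adjusted p = 0.0292). Only 3 of the 23 arrays measured Cdc6 above background, old sedentary array 4 among them and no MICT array, so no fold is given. Without old sedentary array 4 its call was lost (adjusted p = 0.0901), as it was without old MICT array 1 or 2 and in 10 of 39 alternatives in all.

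Pcna was at 3.96, 3.92, 3.78 and 3.47 after MICT, inside the old sedentary range, with a difference of 0.01 ± 0.15 (adjusted p = 0.967) whose sign changed with the scaling. Rrm1 (0.26 ± 0.14), Tyms (0.37 ± 0.24), which encodes thymidylate synthase, and Rrm2 (-1.27 ± 0.63) did not pass. E2f1, a factor that drives replication genes, was at -1.73, -1.86, -2.17 and -0.86 in old sedentary mice and at -4.86, -3.14, -2.98 and -3.11 after MICT. It fell by 1.87 ± 0.44 (adjusted p = 0.00719), and the groups did not overlap. Foxm1 fell by 1.79 ± 0.49 (adjusted p = 0.0133), and Ccne1, the cyclin E1 gene of S-phase entry, had -0.54 ± 0.32 (adjusted p = 0.193). Foxm1 was above background on 1 of 4 old MICT arrays, so the size of its fall is not well measured.

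Most of these calls outlasted the standout array but not every model. Leaving out each of the 23 arrays in turn left 19 to 25 members called. Without old sedentary array 4, 15 mitotic genes, 2 replication genes and 2 regulators fell, and Rrm1 rose by 0.42 ± 0.12 (adjusted p = 0.0233). The shares of all features in the fits that leave out an array are not given. With all arrays 21.3% of all features rose, so 1 rise is not read as a result about Rrm1. Fitted on these 2 groups alone, or with the slide as an additive term, 0 members and 0 features were called, and with the slide term the mitotic median was -1.40. No slide holds both groups.

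**Figure D3:**
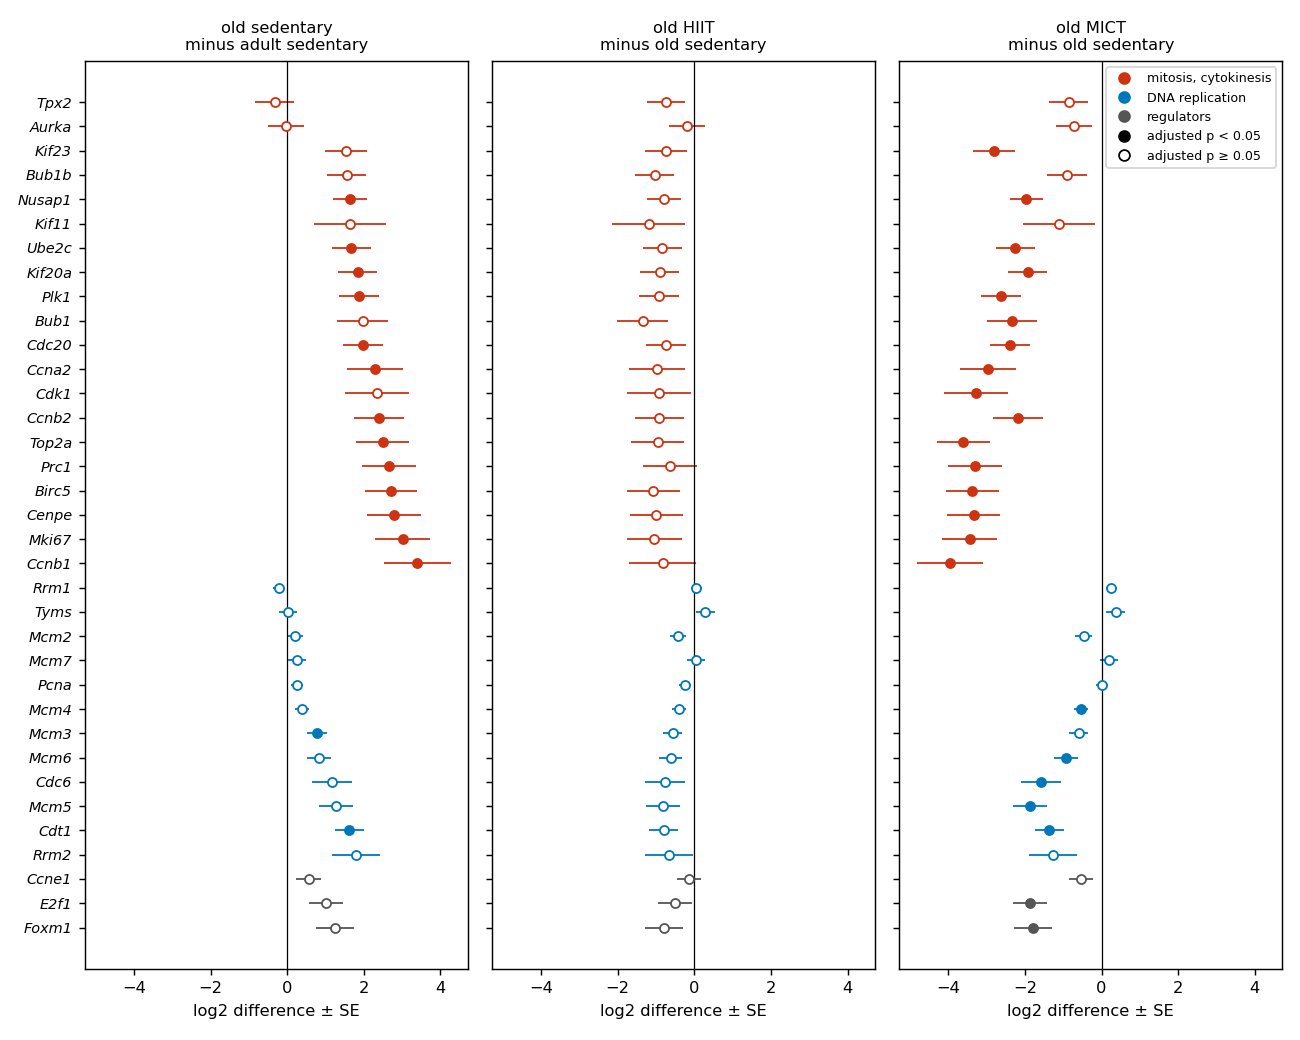
Log2 difference ± SE of each tested member in 3 comparisons that share the old sedentary arrays, mitotic genes in red, replication genes in blue and regulators in grey; filled points are called at an adjusted p under 0.05. Mitotic genes run from -0.33 to 3.40 for age and from -3.96 to -0.72 for MICT in old mice, and replication genes from -0.22 to 1.79 and from -1.87 to 0.37.

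HIIT in old mice called no member, where 117 of 23716 features (0.493%) were called. The median difference from old sedentary was -0.91 for mitotic genes, -0.50 for replication genes and -0.50 for regulators, beside 0.08 over all features. At an unadjusted p under 0.05, 0 mitotic genes and 3 replication genes passed, where 3750 of 23716 features did. Mki67 was at 0.34, -0.15, 0.74 and 0.22 on old HIIT arrays 1 to 4, overlapping old sedentary mice, with a difference of -1.05 ± 0.72 (adjusted p = 0.482). Mcm3 and Mcm4 had -0.56 ± 0.25 and -0.40 ± 0.18 (adjusted p = 0.288 and 0.281). Without old sedentary array 4 the medians shrank to -0.27 and -0.21 for mitotic and replication genes.

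On their shared slide, old HIIT and old MICT mice differed more in mitotic than in replication genes, but no feature of the 23716 was called (0%). The median difference, HIIT over MICT, was 1.68 for mitotic genes, 0.08 for replication genes and 1.00 for regulators, beside -0.09 over all features. At an unadjusted p under 0.05, 13 mitotic genes, 1 replication gene and 1 regulator passed, where 3982 of 23716 features did. For 17 members every HIIT array lay above every MICT array (13 mitotic, 1 replication and 3 regulators), against 2.58% of all features. Mki67, measured above background on all 8 arrays, had 2.39 ± 0.72 (adjusted p = 0.22). Kif23 and Ccnb1, below background on all old MICT arrays, were at least 3.07-fold and 6.47-fold higher with HIIT on the floor described above (adjusted p = 0.22 each).

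In adult mice neither regimen called any feature against sedentary mice (0% for each). Mitotic genes had a median difference of 0.41 after HIIT and -0.70 after MICT, and replication genes 0.09 and -0.15. In each, 1 mitotic gene had an unadjusted p under 0.05, where 1206 of 23716 features did for HIIT and 487 for MICT. Mki67 was at -0.34, -0.69, 0.23 and -2.54 in adult HIIT mice, within the adult sedentary range. The direct comparison of HIIT with MICT in adults, on different slides, called no feature either (0%), with a mitotic median of 1.24. There 4 members had an unadjusted p under 0.05, where 1839 of 23716 features did. Sedentary array 2 bears on the first pair: without it the gap between mitotic and replication medians was 0.82 for HIIT and -0.13 for MICT, against 0.32 and -0.55 with it.

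Whether training acted differently at the 2 ages was tested as the difference of the differences. For MICT, 165 features passed (0.696%) but no member. The smallest adjusted p of a member was 0.114, for Ccnb1, whose difference has no measured size because it was above background on 0 of 7 MICT arrays and 1 adult sedentary array. In all, 13 of 35 members had an unadjusted p under 0.05, where 6005 of 23716 features did. Mki67 had -2.27 ± 1.06 (adjusted p = 0.189) and Mcm5 -1.47 ± 0.65 (adjusted p = 0.17). For HIIT 0 features passed (0%) and the smallest adjusted p of a member was 0.428. At an unadjusted p under 0.05, 2 of 35 members passed, where 2700 of 23716 features did. So the fall after MICT was called in old and not in adult mice, and the difference between the ages was not.

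Mitotic genes had the larger median difference in each of the 8 comparisons of groups as fitted here. With another background correction (normexp) the gap for HIIT in adults turned from 0.32 to -0.06. The gap between the mitotic and replication medians was 1.38 for age, -1.95 for MICT and -0.42 for HIIT in old mice, 0.32 and -0.55 for HIIT and MICT in adults, 1.60 for old HIIT over old MICT, 1.05 for adult HIIT over adult MICT and 1.94 for old sedentary over adult MICT. Per array, the gap was 1.53 ± 0.90 (SD, n = 4) in old sedentary mice, from 0.65 to 2.78, and -0.67 ± 0.40 (SD, n = 4) in old MICT mice, from -1.21 to -0.29. Those ranges did not touch. Adult sedentary arrays ran from -0.59 to 1.19. With the same correction the MICT gap in old mice shrank to -0.54, in the same direction.

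Other genes of division and replication were followed in 7 lists, and with HIIT in old mice 0 genes of any list passed. These lists, like the members, were drawn up with earlier results of these data known. Of 13 tested kinetochore and checkpoint genes, 5 rose with age and 8 fell with MICT in old mice, with medians of 1.21 and -1.44. For this and the lists below, 4.55% of all features rose with age and 9.03% fell with MICT. Ndc80, the microtubule anchor of the kinetochore, rose by 2.03 ± 0.48 without overlap of the groups (adjusted p = 0.0159). After MICT it was at least 3.95-fold lower on the floor described above (adjusted p = 0.00425). Sgo1, which protects sister cohesion, rose by 2.63 ± 0.64, and Spc25 rose by 1.51 ± 0.46 with age and fell by 2.08 ± 0.46 with MICT.

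Of 16 other spindle and cytokinesis genes, 7 rose with age and 12 fell with MICT, with medians of 0.88 and -1.37. Cdca8 and Incenp, partners of Birc5 in the chromosomal passenger complex, rose by 1.59 ± 0.42 and 0.84 ± 0.22 with age, and Cdca8 fell by 2.26 ± 0.42 with MICT (adjusted p = 0.00321). Ckap2, a spindle protein, rose by 2.61 ± 0.63. Aspm, a spindle pole protein, was at least 7.53-fold lower after MICT on the same floor (adjusted p = 0.00585). Of 7 condensin genes, which compact chromosomes, 1 rose with age (Smc4, 0.74 ± 0.21) and 4 fell with MICT, among them Ncaph (-1.37 ± 0.29) and Smc2 (-1.46 ± 0.32), while Ncaph2 rose by 0.50 ± 0.12 (adjusted p = 0.00708). That 1 rise of 7 is a smaller share than the 21.3% of all features that rose with MICT.

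Of 11 other mitotic regulators, 3 rose and 1 fell with age, and 6 fell and 1 rose with MICT. Melk and Pkmyt1, a mitotic kinase and an inhibitor of Cdk1, rose by 3.07 ± 0.76 and 0.99 ± 0.23 with age. After MICT Melk was at least 7.35-fold lower and Espl1, the separase gene, at least 3.97-fold lower on the same floor (adjusted p = 0.00517 and 0.00494). Pkmyt1 fell by 1.10 ± 0.23. Pttg1, the securin gene, ran the other way, with -0.52 ± 0.12 for age (adjusted p = 0.0157) and 0.48 ± 0.12 for MICT (adjusted p = 0.00977). The 1 fall of 11 with age is near the 8.3% of all features that fell. The 1 rise of 11 with MICT is a smaller share than the 21.3% that rose.

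Of 32 other replication genes, 3 rose and 1 fell with age, with a median of 0.18, and 10 fell and 4 rose with MICT, with a median of -0.27. Uhrf1, which keeps DNA methylation through replication, rose by 2.47 ± 0.70 with age (adjusted p = 0.0305) and fell by 3.25 ± 0.70 with MICT (adjusted p = 0.00517). The histone chaperone genes Chaf1b and Asf1b rose by 1.40 ± 0.33 and 1.18 ± 0.38 with age. Over all features, 4.55% rose and 8.3% fell with age, and 9.03% fell and 21.3% rose with MICT, so 4 rises of 32 with MICT and 1 fall of 32 with age are smaller shares than the background. These were Rpa2, of the single-strand binding complex, which fell by 0.46 ± 0.15 with age, and Rpa1, Rpa2, Cdc45 and Rfc4, which rose with MICT by 0.53 ± 0.12, 0.62 ± 0.15, 0.65 ± 0.23 and 0.37 ± 0.13.

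Of 12 tested cyclin, kinase and E2F genes of the step into S phase, 0 rose and 1 fell with age (E2f6, -0.45 ± 0.13), and 6 fell and 1 rose with MICT. The cyclin D genes Ccnd1, Ccnd2 and Ccnd3 fell by 1.73 ± 0.44, 1.23 ± 0.33 and 0.75 ± 0.18, and E2f6, a repressor, rose by 0.50 ± 0.13. The 1 fall of 12 with age is near the 8.3% of all features that fell. The 1 rise of 12 with MICT is a smaller share than the 21.3% that rose. Of 14 genes of cyclin-dependent kinase inhibitors and quiescence, Btg1 rose (1.00 ± 0.30) and Cdkn1b, an inhibitor gene, fell (-0.43 ± 0.12) with age. With MICT 2 rose, Rbl2 (1.16 ± 0.26) and Btg2 (1.62 ± 0.54), and 3 fell, Rbl1 (-0.84 ± 0.26), Cdkn2a (-1.52 ± 0.52) and Cdkn2b (-1.05 ± 0.38). The 2 rises of 14 with MICT are a smaller share than the 21.3% of all features that rose. Likewise, the 1 fall of 14 with age is a smaller share than the 8.3% that fell, and the 1 rise of 14 is near the 4.55% that rose. Over all features, 9.03% fell with MICT. The median of this list was -0.01 for age and 0.12 for MICT.

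Markers of some other cell types, such as lymphocytes, were highest in old sedentary mice like the mitotic genes. Those of others, such as endothelial cells, were not, and the part of any of them in the result was not tested. The median level of 7 tested B cell markers, relative to the adult sedentary mean, was 6.12, 4.74, 2.43 and 1.95 on old sedentary arrays 1 to 4 and between -0.10 and 0.26 in old MICT mice. Of the 7, 6 to 7 were well above background in old sedentary mice, 3 to 4 in old MICT mice and 2 to 3 in adult mice. T and NK cell markers (12 tested) were at 4.28, 3.68, 1.95 and 1.00 in old sedentary mice and between 0.00 and 0.25 after MICT. The lymphocyte markers were thus highest on arrays 1 and 2, and the mitotic genes on array 4. Old HIIT array 2, with the highest B cell median of its group at 4.28, had its lowest mitotic median, 0.51.

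Neutrophil and marrow granulocyte markers (10 tested) were at 0.18, 0.96, 0.38 and 7.09 on old sedentary arrays 1 to 4, so that array 4 stood out for these as for the mitotic genes. They also reached 5.59 on old HIIT array 1 and 4.16 on old MICT array 3, whose mitotic medians were 1.38 and -0.31. Bone markers (4 tested) were at 4.85 on old sedentary array 4, against 0.32 to 1.86 on the other 3, and markers of regenerating fibres (6 tested) at 2.97 against -1.06 to 0.92. Macrophage markers (7 tested) were at 1.34 there, against -0.15 to 0.59. Satellite cell markers (4 of 5 tested) ran from -0.62 to 0.53 in old sedentary mice, where array 4 had the 0.53, and from -0.98 to -0.21 in old MICT mice. Adult sedentary array 2, which stood out for the mitotic genes, had the lowest neutrophil and marrow median of its group, -0.31, against 0.02 to 0.11 on the other 3.

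Germinal centre B cell markers (3 of 6 tested) ran from -0.96 to 0.43 in old sedentary and from -1.77 to -0.39 in old MICT mice, and erythroid precursor markers (5 of 9 tested) from -0.24 to -0.09 and from -0.60 to 0.04. Plasma cell markers (5 tested) reached 4.25 in old sedentary mice and 0.45 after MICT. Keratinocyte markers (7 tested) ran from 0.65 to 8.44 in old sedentary, from 1.20 to 7.65 in old HIIT and from -0.87 to 2.32 in old MICT mice. Adipocyte markers (5 tested) ran from 0.62 to 4.50 in old sedentary and from -0.08 to 2.74 in old MICT mice. Fibroblast, endothelial and mast cell markers (7, 5 and 6 tested) had medians of -0.03, -0.44 and 0.95 in old sedentary and of -0.80, -0.26 and -0.35 in old MICT mice.

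**Figure D4:**
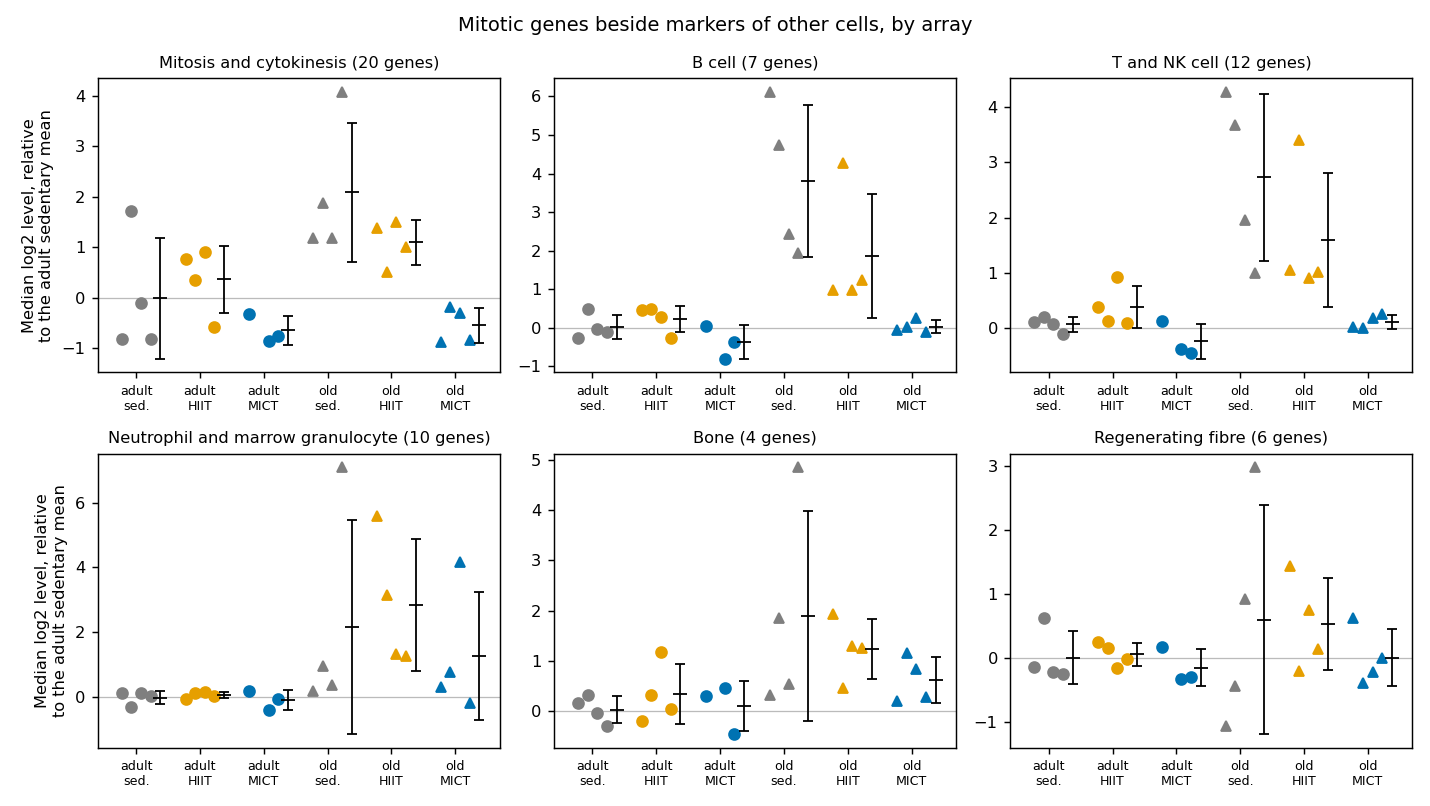
Median log2 level of the mitotic genes and of 5 marker lists on each array, relative to the adult sedentary mean, with mean and SD bars. Old sedentary array 4 is highest for mitotic genes (4.08), neutrophil and marrow (7.09), bone (4.85) and regenerating fibre markers (2.97), but lowest of its group for B cell (1.95) and T and NK cell markers (1.00).

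Without old sedentary arrays 1 and 2, the arrays richest in lymphocyte markers, 12 members were called lower after MICT (11 mitotic genes and 1 regulator) and 0 for age, where 1.7% and 0.101% of all features were called in either direction. Without old sedentary array 4 and old HIIT array 1, the arrays richest in neutrophil and marrow markers, 2 members were called for age. The counts after MICT were the same as without array 4 alone, and the share of all features is not given for this pair. Old HIIT array 1 is in neither comparison, so leaving it out could change only the shared estimate of the spread. The part of these cells was not tested.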

How the data were processed

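RNA of 23 muscles was measured on 23 Agilent 1-colour (Cy3) arrays of 62976 spots, each a separate mouse per the labels. Per the file headers, intensity was extracted with Feature Extraction 12.0.3.1, and the processed intensity is the deposited background-corrected signal. The deposited value table is a score that followed the log2 processed intensity of the same array; the authors do not state its scale or centring, and it served as an alternative.

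Control spots (3671) and flagged outliers were left out, replicate spots averaged and the log2 intensity scaled to each array's 75th percentile, computed here from the deposited intensity. RefSeq accessions named 28123 of 29574 probes. A probe was tested if well above background on at least 3 arrays, with the brightest probe per gene. limma 3.58.1 (R 4.3.3) fitted 6 group means on 23 arrays with an intensity trend, 2-sided, with Benjamini-Hochberg adjustment over 23716 features and a threshold of 0.05, for 10 comparisons; it was tested on simulated data. The number of arrays limits the precision. Replicate numbers are positions on the slide, and the samples were not treated as paired. Deviations of same-numbered arrays correlated between -0.44 and 0.40, with a median of 0.04. Those of differently numbered arrays correlated between -0.6 and 0.58, with a median of -0.03.

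The members and gene lists were chosen with earlier results of these data known. All members could be named. Values per array were given for Mki67, Pcna and, for age and for MICT in old mice, the 5 mitotic genes, 3 replication genes and 1 regulator of smallest p; of other lists, up to 3 genes of smallest p and those called against the majority were named. The values per array of Aurka, and Ccnd2, Cdkn2a and Cdkn2b, were added after their values were seen. Alternatives covered background correction, scaling, filters, probes, variance model, slide, replicate block, the arrays fitted and each array left out. 0 value columns belonged to other samples.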

Additional observations from a re-analysis of the deposited data

Results flagged for a closer look

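In groups of 4 arrays, 85 combinations were checked for 1 array lying far from the other 3 (gap over range above 0.829). Each paired a group with a named member, the mitotic median or the replication median. The limit was met 10 times, each time for a member, where chance gives about 5%, and the genes are not independent of each other.

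Old sedentary array 4 was high for 3 mitotic genes. Cenpe stood at 0.92 there and next at -1.18, Birc5 at 3.03 and next at 0.67, and Plk1 at 1.62 and next at -0.78. Adult sedentary array 2 was high for 3 genes, Cdc20 at -0.03 and next at -2.14, Plk1 at -0.48 and next at -2.70, and Cdt1 at 0.21 and next at -1.27.

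The other 4 cases were low values. Adult HIIT array 4 was low for Top2a, at -5.97 with the next at -4.01, and for E2f1, at -3.46 with the next at -2.19. Old HIIT array 2 was low for Top2a, at -4.46 with the next at -3.08. Old MICT array 1 was low for E2f1, at -4.86 with the next at -3.14.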

How the results depend on the processing

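Of 40 alternatives, the gap between mitotic and replication medians for age kept its direction in 40 (0.63 to 1.95), and that for MICT in old mice stayed negative in 40 (-2.35 to -0.54). The calls held less well, and their counts are of members only, without the share of all features called in each fit. For age the 15 called members became 25 with array weights, 0 with the slide term, 0 with only the compared groups, 0 without old sedentary arrays 1 and 2, 2 without old sedentary array 4 and old HIIT array 1, 23 without adult sedentary 2 and old sedentary 4 (chosen after seeing the data), and 0 to 26 without 1 array. For MICT in old mice the 23 became 15 with normexp, 0 with the slide term, 0 with only the compared groups, 12 without old sedentary arrays 1 and 2, and 19 to 25 without 1 array. For old sedentary against adult MICT the 21 became 11 with normexp, 0 with only the compared groups, 1 and 10 without the same array pairs, and 0 to 24 without 1 array. The difference in MICT response between ages went from 0 members to 1 with array weights, 2 without the pair chosen later and 0 to 5 without 1 array; adult HIIT against adult MICT went from 0 to 5 with array weights, and old HIIT against old MICT from 0 to 1 without that pair.

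The gap for MICT in old mice was -0.54 with normexp; for old sedentary against adult MICT it was 0.83 with normexp and 2.66 with probes above background on every array of a group. With the slide term it was -1.33 for MICT in adults and 0.32, turned in direction, for HIIT in old mice. For HIIT in adults it turned to -0.06 with normexp. Pcna after MICT in old mice (0.01) turned negative with normexp (-0.12), quantile (-0.25), z-score (-0.16) and median scaling (-0.03), the deposited table (-0.19), array weights (-0.02), without old sedentary arrays 1 and 2 (-0.06), and in 4 of the fits without 1 array (-0.06 to 0.13 over all 23). The causes were not tested.

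With the replicate number as a block, 13 members were called for age, 23 for MICT in old mice and 13 for old sedentary against adult MICT. These numbers are positions on the slide. The slide term leaves the age by training differences without an estimate. Dim mitotic genes are limited by signal over background: 6 of 20 were above it on all arrays.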
